A study of Mus musculus with 24 samples.

Results

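The genes of the proteasome, the protease complex that degrades ubiquitin-tagged proteins, were measured in lungs of old and young mice after ischemia and reperfusion. Members were the genes whose symbol starts with Psma, Psmb, Psmc, Psmd or Psme and a digit and whose mean level over all libraries was at least 1 TPM, the abundance of a transcript scaled by its length and by the total of its library. Of 45777 genes in the deposited table, 48 matched the symbol rule and 43 of these reached that level. The lowest members were Psme2b with a mean of 7.29 TPM and Psmc3ip with 7.67 TPM. The symbols that matched but fell short were Psma8, at a mean of 0.341 TPM, Psmb11, a thymus-specific catalytic subunit at 0.0013 TPM, and the pseudogenes Psmb5-ps, Psmb6-ps2 and Psmb7-ps2. Of the members, 31 encode the constitutive core and regulatory particle and 5 encode immunoproteasome parts (Psmb8, Psmb9, Psmb10, Psme1 and Psme2). The other 7 are the assembly chaperone genes Psmd5, Psmd9 and Psmd10, the activator genes Psme3 and Psme4, the near copy Psme2b of Psme2, and Psmc3ip, a recombination factor gene that shares only the symbol.

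All animals were male wild-type mice of the C57BL6j strain. In old mice, 22 to 24 months of age, and in young mice, 8 to 12 weeks of age, the artery, vein and bronchus of the left lung were clamped for 60 min and then opened for 1 h or 1 day. Sham-operated mice of each age were the controls, and the time at which their lungs were taken is not stated in the labels. The 6 groups (old sham, old 1 h, old 1 day, young sham, young 1 h and young 1 day) had 4 libraries each, made from total lung RNA with a stranded mRNA kit. The labels do not say that each library came from a separate mouse, so p-values measure the spread between libraries, which may in part be technical.

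The proteasome is a barrel-shaped core capped by a regulatory particle. Rings of alpha subunits gate the core and rings of beta subunits inside it carry the proteolytic sites. ATPases of the regulatory particle unfold a substrate and thread it into the core. Other subunits of that particle bind and remove its ubiquitin chain. Interferon-gamma is known to induce the alternative catalytic subunits Psmb9, Psmb10 and Psmb8, which take the places of Psmb6, Psmb7 and Psmb5 in newly built cores and change the peptides made for class I antigen presentation. When proteasome activity falls, the transcription factor NFE2L1 is known to raise the constitutive subunit genes together through antioxidant response elements (AREs) in their promoters.

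The promoters of 2 constitutive catalytic genes and 2 immunoproteasome catalytic genes are shown because these gene classes moved apart in old lungs at 1 day. Each sequence holds the 250 bases before the RefSeq transcription start on GRCm38.p6, read 5′ to 3′ on the strand of the gene. Capitals mark every match, on either strand, to the ARE core TGACNNNGC, an interferon regulatory factor (IRF) site AANNGAAA, a gamma-activated site (GAS) TTCNNNGAA or a CCAAT box.
Psmb5: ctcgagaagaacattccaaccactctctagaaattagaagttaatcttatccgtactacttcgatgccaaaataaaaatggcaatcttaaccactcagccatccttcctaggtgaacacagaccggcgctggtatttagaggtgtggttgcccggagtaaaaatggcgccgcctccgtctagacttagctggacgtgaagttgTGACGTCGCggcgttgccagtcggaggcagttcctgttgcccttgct
Psmb6: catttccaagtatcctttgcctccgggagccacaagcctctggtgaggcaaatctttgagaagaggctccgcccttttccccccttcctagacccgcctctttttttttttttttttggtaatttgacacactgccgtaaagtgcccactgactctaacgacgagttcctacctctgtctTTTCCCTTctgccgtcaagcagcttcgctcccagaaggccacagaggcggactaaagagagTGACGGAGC
Psmb8: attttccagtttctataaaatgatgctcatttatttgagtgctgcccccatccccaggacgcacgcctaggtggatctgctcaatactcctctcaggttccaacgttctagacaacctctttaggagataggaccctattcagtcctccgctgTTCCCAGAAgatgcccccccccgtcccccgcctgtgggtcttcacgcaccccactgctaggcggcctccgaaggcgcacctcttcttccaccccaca
Psmb9: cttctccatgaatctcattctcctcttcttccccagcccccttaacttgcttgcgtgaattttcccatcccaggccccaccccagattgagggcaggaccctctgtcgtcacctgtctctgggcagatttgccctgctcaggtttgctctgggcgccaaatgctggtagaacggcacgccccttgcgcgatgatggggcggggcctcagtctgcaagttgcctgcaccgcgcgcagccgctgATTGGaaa
The Psmb5 sequence lies on the minus strand at chr14:54617996-54618245 and holds an ARE core match that begins 47 bases before the start. The Psmb6 sequence lies on the plus strand at chr11:70525107-70525356, and its ARE core match ends at the base before the start; an IRF site match on its opposite strand begins 70 bases before the start. The Psmb8 sequence, on the plus strand at chr17:34197945-34198194, holds a GAS match that begins 97 bases before the start. The Psmb9 sequence, on the minus strand at chr17:34187331-34187580, holds a CCAAT box on its opposite strand and none of the other motifs. Psmb9 and Tap1, a peptide transporter gene of antigen presentation, start 225 bases apart and run in opposite directions, and Psmb8 follows 969 bases after the end of Tap1.

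RefSeq promoter windows of 300 bases, from 250 before to 50 after the start, were found for 37 of the 43 members, as 40 windows. The members without a window were Psmb1, Psmb2, Psmb7, Psmc3, Psmd3 and Psmd7. The ARE core was present in 6 of the 40 windows (15.0%), none of them of an immunoproteasome gene, against 12.4% of 32851 windows of all genes. The IRF site was present in 11 of the 40 (27.5%), among the immunoproteasome genes in that of Psme1, against 23.9% of all windows. The GAS was present in 2 of the 40 (5.0%) against 8.30%, and the CCAAT box in 14 of the 40 against 37.4%. These matches describe the letters in the window and are not evidence of binding.

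Library totals ran from 27850677 to 44504824 estimated reads. All 43 members passed the filter on low counts, with 43 (Psme2b) to 14003 (Psmd2) estimated reads per library, and 41 of them had at least 100 in every library. Groups differed in more than the members. Log2 abundance relative to the mean of each gene over all libraries rose with transcript GC content in the young 1 h and young 1 day libraries. Spearman rho across genes was 0.204 to 0.448 there and −0.353 to −0.0217 in the other groups. Since values are relative to that mean, a positive trend in some libraries goes with a negative one in others. The 13 mitochondrial genes gave 0.758% to 1.49% of estimated reads in the young reperfused libraries, against 2.47% to 4.26% in the others. Results are given as fitted and, where it matters, after the GC trend of each library was removed. In the young 1 day group, library 4 stood apart in genes of the interferon response (Tap1 at 127 TPM, against 46.3 to 72.6 TPM in libraries 1 to 3). Among the old 1 day libraries, the summed level of 7 neutrophil markers ran from 1883 TPM in library 1 to 19966 TPM in library 2. Without composition scaling (TMM), the median log2 change of all genes from sham was −0.137 in old 1 h, −0.049 in old 1 day, −0.208 in young 1 h and −0.152 in young 1 day lungs, against 0.001, 0.023, 0.015 and −0.032 with it.

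Mean TPM over all libraries was highest for Psma7 (207 TPM) and lowest for Psma5 (86.4 TPM) among the 7 alpha ring genes. In the beta ring, Psmb3 (247 TPM) and Psmb2 (160.0 TPM) bounded the 4 non-catalytic genes, and Psmb6 (180.4 TPM) and Psmb5 (143 TPM) the 3 catalytic genes. In the regulatory particle, the ATPase genes lay between Psmc6 (76.3 TPM) and Psmc3 (160.0 TPM), and the lid and scaffold genes between Psmd11 (56.2 TPM) and Psmd4 (172 TPM). Immunoproteasome transcripts were of similar abundance, from Psmb9 (81.5 TPM) to Psme1 (263 TPM). The assembly chaperones were scarcer, at 31.7 TPM for Psmd5 and 17.1 TPM for Psmd10, as were the activators Psme3 (56.0 TPM) and Psme4 (27.1 TPM).

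**Figure D1:**
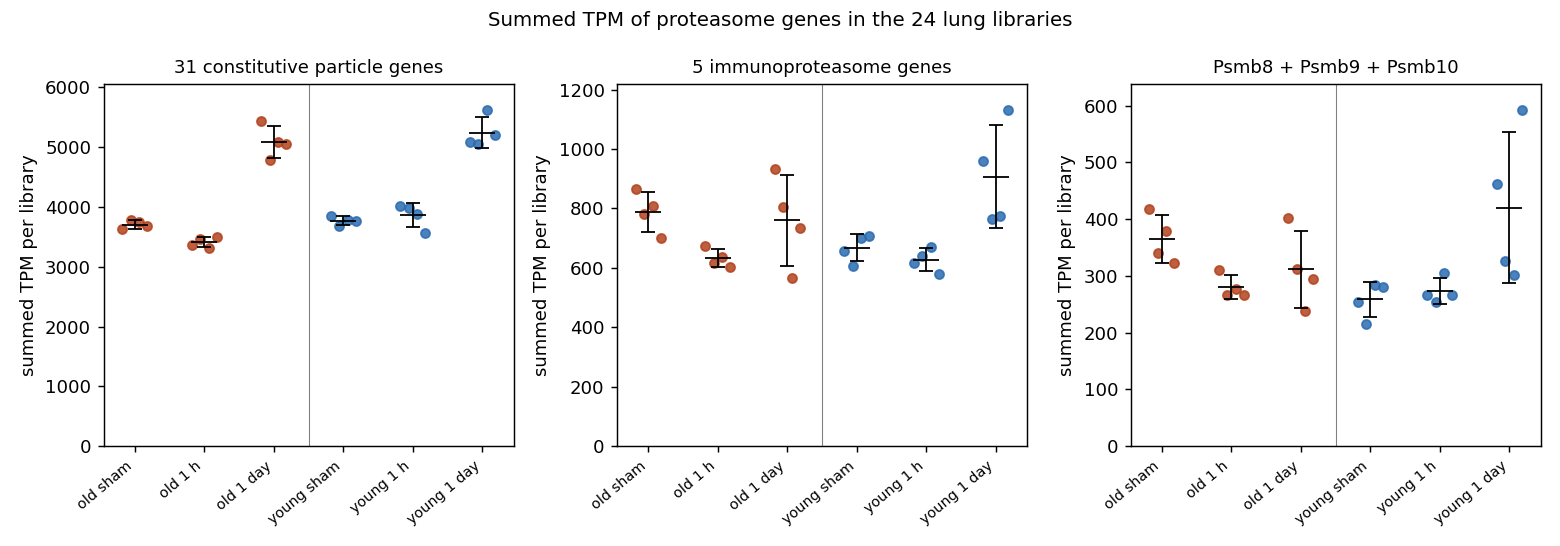
Summed TPM of the 31 constitutive genes, the 5 immunoproteasome genes and Psmb8, Psmb9 and Psmb10 alone in each of the 24 libraries (points), with the mean and SD of each group (bars); vertical axes are TPM. Constitutive sums at 1 day (4781 to 5434 TPM in old, 5059.6 to 5615 TPM in young lungs) lie above all sham values, whereas the immunoproteasome sums of old 1 day and old sham lungs overlap.

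After 1 day of reperfusion in old lungs, the whole constitutive proteasome rose. Each of the 31 genes was called higher (adjusted p under 0.05), against 20.0% of all 19690 genes tested that rose (16.3% fell and 36.3% changed in either direction). The normalised counts of old 1 day and old sham libraries did not overlap for any of the 31. The share of all genes without such overlap was not computed. The median log2 change was 0.51, while the median of all genes was 0.02. The 31 genes summed to 5434, 4781, 5079.9 and 5059.9 TPM in old 1 day lungs, against 3625, 3777, 3751 and 3676 TPM in old sham lungs. All 7 alpha genes, 4 non-catalytic beta genes, 3 catalytic genes, 6 ATPase genes and 11 lid and scaffold genes passed by edgeR's quasi-likelihood test with Benjamini-Hochberg adjustment. The number of calls stayed at 31 after GC-trend removal (median 0.49; 20.9% of all genes rose, 18.3% fell and 39.2% changed) and when any single library was left out; it was 30 in limma on TPM and 28 on curated transcripts. Because whole lung was sequenced, a change in the number of cells that hold a transcript and a change in its amount per cell cannot be told apart.

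The largest rises in old 1 day lungs were in a lid gene, a catalytic gene and an ATPase gene. Psmd14, the deubiquitinase that removes ubiquitin chains as substrates enter, had 103, 83.4, 97.6 and 87.0 TPM in old 1 day lungs, against 48.5, 53.7, 51.7 and 54.8 TPM in old sham lungs. The groups were far apart, and the log2 change was 0.89 ± 0.10 (SE; adjusted p = 1.21e-06). Psmb5, the chymotrypsin-like catalytic subunit, had 229, 191, 173 and 200.2 TPM in old 1 day lungs, against 114, 124, 122 and 107 TPM in old sham lungs (log2 change 0.82 ± 0.09, adjusted p = 4.44e-07). Every old 1 day library was above every old sham library. Psmc4, an ATPase of the base, had 148, 135, 156 and 149 TPM in old 1 day lungs, against 89.1, 93.5, 99.9 and 92.6 TPM in old sham lungs (log2 change 0.71 ± 0.06, adjusted p = 3.28e-08). Psmb6, the caspase-like catalytic subunit, had 226, 172, 166 and 190.1 TPM in old 1 day lungs, against 151, 149, 156 and 145 TPM in old sham lungs. Its log2 change of 0.39 ± 0.08 (adjusted p = 0.000563) and that of the trypsin-like subunit Psmb7, 0.47 ± 0.07 (adjusted p = 2.31e-05), were smaller than that of Psmb5. The smallest rise among the 31 was that of the beta ring gene Psmb1, at 0.28 ± 0.07 (adjusted p = 0.00539).

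In young 1 day lungs, 27 of the 31 constitutive genes rose and 1 fell, against 27.9% and 26.0% of all genes tested that rose and fell (53.9% in all). The median log2 change was 0.73, with a median of −0.03 for all genes. The sum was 5089, 5059.6, 5615 and 5207 TPM in young 1 day lungs, against 3855, 3683, 3779 and 3770.1 TPM in young sham lungs. As in old lungs, every reperfused library lay above every sham library. The calls comprised 6 of 7 alpha genes, all 4 non-catalytic beta genes, all 3 catalytic genes, 5 ATPase genes and 9 of 11 lid and scaffold genes. After GC-trend removal all 31 were called higher, with a median of 0.67, against 25.2% of all genes that rose, 23.4% that fell and 48.6% that changed. The alpha gene Psma3 (0.20 ± 0.09, adjusted p = 0.0834) and the lid genes Psmd12 (0.09 ± 0.10, adjusted p = 0.454) and Psmd6 (0.18 ± 0.11, adjusted p = 0.170) were not called as fitted.

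Psmb3, a structural subunit of the beta ring, showed the largest rise in young lungs. Its level was 424, 388, 361 and 413 TPM in young 1 day lungs, against 192, 188, 189.9 and 207 TPM in young sham lungs (log2 change 1.26 ± 0.07, adjusted p = 1.29e-10). The lowest young 1 day library stood well above the highest sham library. Psmd4, the ubiquitin receptor of the regulatory particle, had 267, 227, 224 and 262 TPM in young 1 day lungs, against 128, 137, 131 and 132 TPM in young sham lungs (1.13 ± 0.08, adjusted p = 5.11e-10). The groups again did not overlap. Psmc3ip rose by a similar log2 amount (1.13 ± 0.20, adjusted p = 6.36e-05) at a much lower level, 8.24, 10.1, 14.1 and 9.08 TPM in young 1 day lungs against 5.45, 4.02, 7.41 and 4.81 TPM in young sham lungs. The catalytic genes rose by 1.03 ± 0.09 (Psmb5, adjusted p = 4.02e-09), 0.86 ± 0.08 (Psmb6, adjusted p = 1.04e-08) and 0.67 ± 0.07 (Psmb7, adjusted p = 5.38e-08) on the log2 scale.

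The constitutive gene called lower in young 1 day lungs was Psmc6, an ATPase gene with the lowest transcript GC content of the members (37.0%). It had 43.2, 53.9, 74.0 and 46.4 TPM in young 1 day lungs, against 79.1, 87.2, 82.2 and 83.4 TPM in young sham lungs. On normalised counts the groups overlapped, and the log2 change was −0.40 ± 0.13 (adjusted p = 0.0113) as fitted and 0.57 (adjusted p = 4.28e-07) after GC-trend removal. In old 1 day lungs Psmc6 was at 105, 103, 109 and 98.5 TPM, against 76.3, 79.9, 79.5 and 78.4 TPM in old sham lungs. There the rise held either way, at 0.46 ± 0.13 (adjusted p = 0.00740) as fitted and 0.58 after removal. Psma2, an alpha ring gene with 39.4% GC, moved in young 1 day lungs by 0.52 ± 0.08 (adjusted p = 9.68e-06) as fitted and by 1.299 after removal.

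**Figure D2:**
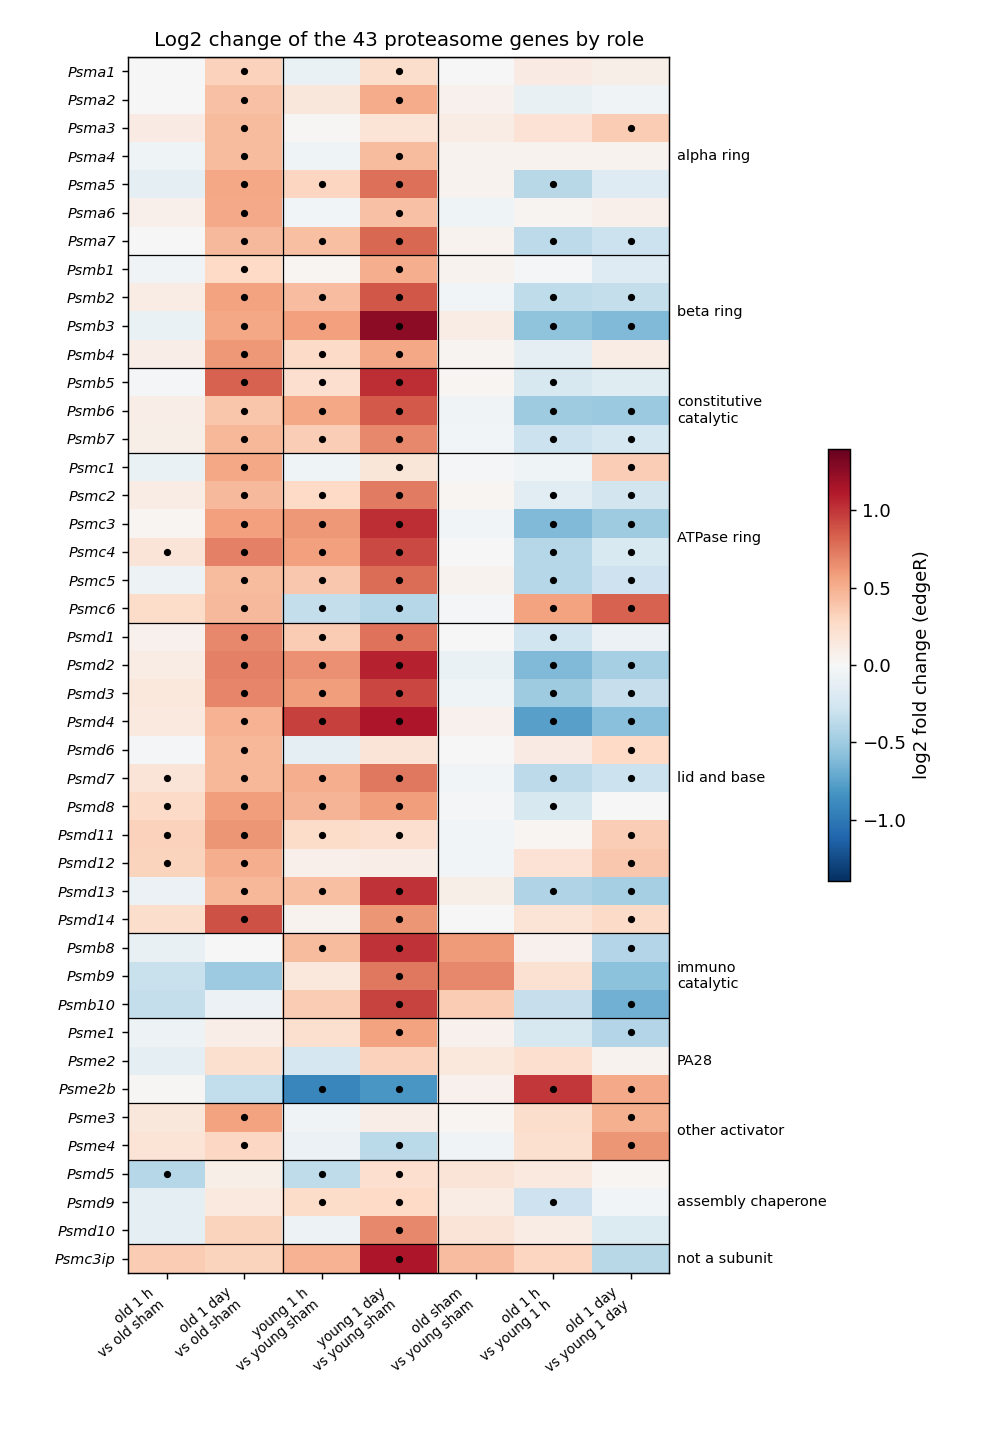
Log2 change of the 43 members (rows, ordered by role) in 7 comparisons (columns), as colour, with a black dot where the adjusted p was under 0.05. The old 1 day column has a dot for each of the 31 constitutive genes and none for the 5 immunoproteasome genes.

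The immunoproteasome genes did not follow the constitutive genes in old lungs. None of the 5 was called at 1 day in old lungs by edgeR, with a median log2 change of 0.001, and at an unadjusted p under 0.05 the count was 0 higher and 1 lower; DESeq2 also called 0, and limma on log2(TPM + 1) called 1 lower. In young lungs 4 of the 5 were called higher at 1 day, against 27.9% of all genes, with a median of 0.74. After GC-trend removal the count was 2 of 5, against 25.2% of all genes, and the median 0.36. Leaving out young 1 day library 4 or young sham library 2 reduced the 4 calls to 3, and leaving out any other library gave 4 or 5. The 5 genes summed to 933, 806, 566 and 734 TPM in old 1 day lungs, against 864, 782, 808 and 699.5 TPM in old sham lungs. These ranges overlapped. The sum was 958, 764, 775 and 1129.9 TPM in young 1 day lungs, against 657, 607, 700.3 and 708 TPM in young sham lungs, with no overlap and with library 4 the highest.

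Psmb8, the inducible counterpart of Psmb5, had 197, 148, 129 and 142 TPM in old 1 day lungs, against 174, 146, 173 and 149 TPM in old sham lungs. The groups overlapped, and the log2 change was 0.00084 ± 0.17 (adjusted p = 0.998). In young lungs Psmb8 had 203, 149, 137 and 262 TPM at 1 day, against 112, 99.1, 113 and 115 TPM in sham, with every 1 day library above every sham library (1.01 ± 0.17, adjusted p = 3.47e-05; 0.61 and adjusted p = 0.00309 after GC-trend removal). Psmb10, the counterpart of Psmb7, had 107, 96.5, 63.1 and 89.1 TPM in old 1 day lungs, against 113, 97.3, 97.0 and 86.8 TPM in old sham lungs (−0.08 ± 0.18, adjusted p = 0.748). In young lungs it had 141, 101, 103 and 176 TPM at 1 day, against 75.6, 62.5, 90.4 and 89.7 TPM in sham (0.95 ± 0.18, adjusted p = 0.000144; 0.52 and adjusted p = 0.0142 after removal). Psmb10 overlapped between old groups and not between young groups.

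Psmb9, the counterpart of Psmb6, had 98.0, 66.7, 46.0 and 63.9 TPM in old 1 day lungs, against 131, 96.6, 109 and 86.2 TPM in old sham lungs. The log2 change of −0.51 ± 0.24 did not pass (adjusted p = 0.105), although it did after GC-trend removal (−0.60, adjusted p = 0.0424) and when old 1 day library 1, young 1 day library 3 or young 1 day library 4 was left out. In young lungs Psmb9 had 117, 77.3, 62.2 and 153 TPM at 1 day, against 66.5, 54.2, 80.7 and 75.9 TPM in sham. Those groups overlapped, and the call (0.74 ± 0.24, adjusted p = 0.0134) did not hold after removal (0.36, adjusted p = 0.197) or without young 1 day library 4 (0.43, adjusted p = 0.116).

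Psme1 and Psme2 encode the interferon-inducible activator that caps the core. Psme1 had 308, 299, 187 and 272 TPM in old 1 day lungs, against 267, 272, 265 and 240.2 TPM in old sham lungs (0.09 ± 0.13, adjusted p = 0.588). Library 3 was the lowest of the old 1 day libraries for Psme1, for Psme2 and for the 3 catalytic genes. In young lungs Psme1 had 347, 297, 289.9 and 364 TPM at 1 day, against 255, 248, 264 and 262 TPM in sham (0.56 ± 0.13, adjusted p = 0.000647), and it was not called after GC-trend removal (0.22, adjusted p = 0.129). Psme2 was called at neither age, at 0.22 ± 0.14 in old (adjusted p = 0.222) and 0.32 ± 0.14 in young lungs (adjusted p = 0.0603).

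**Figure D3:**
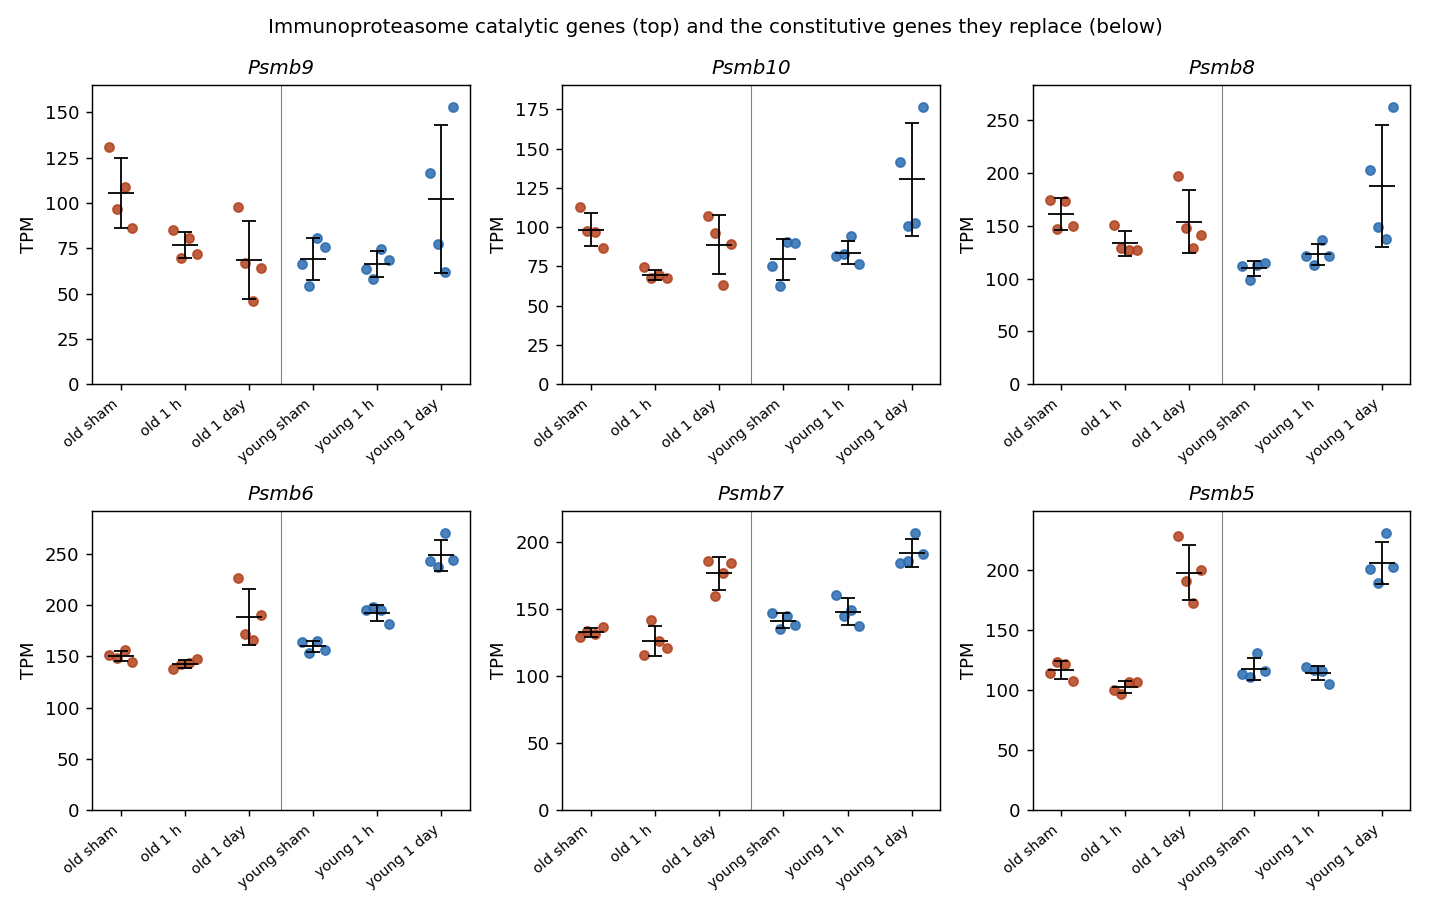
TPM of the inducible catalytic genes Psmb9, Psmb10 and Psmb8 (upper panels) and of the constitutive genes Psmb6, Psmb7 and Psmb5 that they replace (lower panels) in each library (points), with group mean and SD. At 1 day Psmb5 averaged 198 ± 23.2 TPM in old and 206 ± 17.7 TPM in young lungs, whereas Psmb9 averaged 68.7 ± 21.6 TPM in old and 102 ± 40.8 TPM in young lungs (SD, n = 4).

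The age difference in the 1 day change, tested as the interaction in the same fit, was called for 4 of the 5 immunoproteasome genes, all with a lower change in old lungs; of all genes tested, 15.2% had a lower change in old lungs. It was −1.25 ± 0.34 for Psmb9 (adjusted p = 0.00869), −1.03 ± 0.25 for Psmb10 (adjusted p = 0.00430), −1.01 ± 0.24 for Psmb8 (adjusted p = 0.00318) and −0.47 ± 0.18 for Psme1 (adjusted p = 0.0485) on the log2 scale. Psme2 did not pass (−0.09 ± 0.20, adjusted p = 0.760). After GC-trend removal the 3 catalytic genes still passed, at −0.96 (adjusted p = 0.0391), −0.71 (adjusted p = 0.0404) and −0.70 (adjusted p = 0.0304), and Psme1 did not (−0.20, adjusted p = 0.407). The 3 catalytic genes passed without each of the 24 libraries in turn. Without young 1 day library 4 their age differences were −0.97 for Psmb9 (adjusted p = 0.0221), −0.86 for Psmb10 (adjusted p = 0.0104) and −0.81 for Psmb8 (adjusted p = 0.00686). A difference in change also takes in the difference between sham groups. There the 3 catalytic genes were higher in old lungs by 0.353 to 0.677 on the log2 scale, with 0 called as fitted. Between ages at 1 day, 2 of the 3 were called lower in old lungs as fitted and 0 after GC-trend removal.

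Leukocytes are known to express the inducible subunits without stimulation, and leukocyte markers moved at 1 day as well. The 6 monocyte and macrophage markers rose at both ages, with sums of 1073 to 1258 TPM in old 1 day against 337 to 454 TPM in old sham lungs, and 1059 to 1246 TPM in young 1 day against 293 to 336 TPM in young sham lungs. The 6 markers of T and NK cells fell in old lungs and 5 of the 6 fell in young lungs, to sums of 37.0 to 64.0 TPM in old 1 day against 91.4 to 115 TPM in old sham lungs, and 52.9 to 80.0 TPM in young 1 day against 123 to 150 TPM in young sham lungs. Of 4 B and plasma cell markers, 3 fell in old lungs (49.4 to 374 TPM at 1 day, against 322 to 557 TPM in sham) and 0 in young lungs. Of 7 neutrophil markers, 6 rose in old lungs and 0 in young lungs. The pan-leukocyte marker Ptprc fell in young 1 day lungs as fitted (log2 change −0.706) and was not called there after GC-trend removal. In old 1 day lungs it was not called (−0.338). Of all genes tested, 20.0% rose and 16.3% fell in old 1 day lungs, and 27.9% rose and 26.0% fell in young 1 day lungs. None of these markers was at 0 in any whole group, and their part in the immunoproteasome values was not tested.

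The balance within the catalytic positions was measured as the ratio of TPM in each library. Psmb8 over Psmb5 was 0.86, 0.78, 0.74 and 0.71 in old 1 day lungs, against 1.53, 1.18, 1.42 and 1.39 in old sham lungs. Psmb9 over Psmb6 was 0.43, 0.39, 0.28 and 0.34 in old 1 day lungs, against 0.86, 0.65, 0.70 and 0.60 in old sham lungs. Psmb10 over Psmb7 was 0.58, 0.60, 0.36 and 0.48 in old 1 day lungs, against 0.87, 0.73, 0.74 and 0.63 in old sham lungs. All 3 ratios were lower in every old 1 day library than in any old sham library, with differences of mean log2 ratio of −0.84, −0.97 and −0.58. In young lungs the 1 day and sham libraries overlapped in all 3 ratios. Psmb8 over Psmb5 was 1.01, 0.78, 0.59 and 1.29 in young 1 day lungs, against 0.99, 0.89, 0.86 and 0.99 in young sham lungs. Psmb9 over Psmb6 was 0.48, 0.32, 0.23 and 0.63 in young 1 day lungs, against 0.41, 0.35, 0.49 and 0.49 in young sham lungs. Psmb10 over Psmb7 was 0.766, 0.543, 0.497 and 0.924 in young 1 day lungs, against 0.515, 0.463, 0.622 and 0.648 in young sham lungs (difference of mean log2 ratio 0.25). Between ages, Psmb9 over Psmb6 was higher in old lungs without overlap in sham (0.69) and at 1 h (0.65). So was Psmb8 over Psmb5, at 0.56 and 0.275. Psmb10 over Psmb7 overlapped between ages in sham and at 1 h. At 1 day all 3 ratios overlapped between ages, with differences of −0.195, −0.13 and −0.42 in the same order as above. With 4 libraries a group, the two-sided exact permutation test can give no p below 0.0286. The 3 old 1 day ratios reached it against sham, as did the differences between ages without overlap. After Benjamini-Hochberg adjustment over the 21 ratio comparisons each of these was 0.0857, so none of the 21 passed. At that floor even full separation of the groups was not enough to pass here. The adjusted test therefore does not decide whether these ratios changed.

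At 1 h, 20 of the 31 constitutive genes were higher and 1 lower in young lungs, against 21.2% and 20.1% of all genes tested (41.3% in all), with a median log2 change of 0.31. In old lungs 5 of the 31 were higher and 0 lower, against 12.6% and 12.6% (25.2% in all), with a median of 0.09. The direction at 1 h rests on the scaling: without TMM, 12 rose and 7 fell in young lungs, and 0 rose and 5 fell in old lungs. Relative to the median of all genes the constitutive median was higher by 0.291 with TMM and by 0.287 without it in young lungs, and by 0.086 and 0.085 in old lungs. With TPM on a log scale in limma, 9 rose and 8 fell in young lungs and 0 rose and 7 fell in old lungs. After GC-trend removal with TMM, 25 of the 31 rose and 0 fell in young lungs (17.3%, 16.3% and 33.6% of all genes rose, fell and changed), and 8 rose and 0 fell in old lungs (14.1%, 14.3% and 28.4%).

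The largest rises in young 1 h lungs were in genes of the regulatory particle. Psmd4 had 198, 234, 194 and 217 TPM in young 1 h lungs, against 128, 137, 131 and 132 TPM in young sham lungs (0.96 ± 0.08, adjusted p = 1.68e-08). All young 1 h libraries were above all sham libraries. Psmd2, a scaffold of the base, had 152, 159, 141 and 150.1 TPM in young 1 h lungs, against 120.4, 119, 114 and 116 TPM in young sham lungs (0.64 ± 0.06, adjusted p = 1.11e-07). Psmc3, an ATPase, had 174, 172, 168 and 161 TPM in young 1 h lungs, against 134, 126, 134 and 142 TPM in young sham lungs (0.61 ± 0.07, adjusted p = 4.45e-07). These 3 calls held after GC-trend removal, at 0.69, 0.54 and 0.33. The catalytic genes were higher by 0.55 ± 0.08 (Psmb6, adjusted p = 9.35e-06), 0.35 ± 0.07 (Psmb7, adjusted p = 0.000307) and 0.24 ± 0.09 (Psmb5, adjusted p = 0.0329) on the log2 scale. Psmb5 turned to −0.07 (adjusted p = 0.605) after GC-trend removal and to −0.04 on log2(TPM + 1) in limma.

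Falls in young 1 h lungs were called for Psmc6, Psmd5 and Psme2b. Psmc6 had 58.7, 59.5, 61.4 and 37.8 TPM in young 1 h lungs, against 79.1, 87.2, 82.2 and 83.4 TPM in young sham lungs (−0.34 ± 0.13, adjusted p = 0.0387). After GC-trend removal the sign turned, to 0.60 (adjusted p = 6.29e-07). Psmd5, a chaperone that holds ATPase subunits before assembly, had 23.8, 22.2, 23.8 and 18 TPM in young 1 h lungs, against 33.0, 34.0, 32.2 and 36.2 TPM in young sham lungs (−0.35 ± 0.08, adjusted p = 0.00155; −0.13 and adjusted p = 0.168 after removal). Psmd5 also fell in old 1 h lungs, where it had 24.9, 26.1, 25.4 and 24.7 TPM against 36.4, 36.1, 39.2 and 37.2 TPM in old sham lungs (−0.40 ± 0.08, adjusted p = 0.00114), and the call held after removal. At 1 day Psmd5 was at 41.8, 36.4, 37.5 and 35.3 TPM in old and 32.1, 33.4, 38.0 and 33.3 TPM in young lungs. On curated transcripts alone the young 1 h change of Psmd5 was 0.12, of opposite sign.

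In old 1 h lungs the called rises were in 4 lid genes (Psmd11, Psmd12, Psmd8 and Psmd7) and the ATPase gene Psmc4. Psmd11, which braces the lid against the core, had 56.6, 53.2, 53.6 and 53.0 TPM in old 1 h lungs, against 47.4, 48.2, 51.9 and 49.2 TPM in old sham lungs (0.33 ± 0.08, adjusted p = 0.00383). Psmd12 was higher by 0.32 ± 0.10 (adjusted p = 0.0240) and Psmd8 by 0.27 ± 0.07 (adjusted p = 0.00842). For Psmd11 and Psmd12 the normalised counts of old 1 h and old sham libraries did not overlap. None of the 5 immunoproteasome genes was called in old 1 h lungs by edgeR (0 at an unadjusted p under 0.05; 0 by DESeq2; 1 lower by limma on log2(TPM + 1)), with a median of −0.14. In young 1 h lungs Psmb8 alone was called (0.44 ± 0.17, adjusted p = 0.0418), and not after GC-trend removal (0.15, adjusted p = 0.510). The call was also lost when any single young 1 h or young sham library was left out.

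Between old and young sham lungs no member passed edgeR's test (0 of 43, against 1.09%, 1.22% and 2.31% of all genes tested that were higher, lower and either; 4 at an unadjusted p under 0.05, all higher in old; 1 by DESeq2; 0 by limma on log2(TPM + 1)). Of the 31 constitutive genes, 15 had a log2 difference above 0. The median difference of the 5 immunoproteasome genes was 0.35. Psmb8 had 174, 146, 173 and 149 TPM in old sham lungs, against 112, 99.1, 113 and 115 TPM in young sham lungs. All old libraries were above all young libraries, with a log2 difference of 0.60 ± 0.17 that missed the threshold as fitted (adjusted p = 0.0683) and passed after GC-trend removal (0.59, adjusted p = 0.0465), the 1 member so called, against 1.15%, 1.52% and 2.67% of all genes higher, lower and either. For Psmb9 the old sham range of 86.2 to 131 TPM lay above the young sham range of 54.2 to 80.7 TPM (0.68 ± 0.24, adjusted p = 0.173). Psmb10 overlapped (0.35 ± 0.18, adjusted p = 0.395).

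In old against young 1 h lungs, 2 members were higher and 19 lower, against 20.5% and 21.5% of all genes tested (42.0% in all). Psmd4, Psmd2 and Psmc3 were lower in old lungs, with log2 differences of −0.76 ± 0.08 (adjusted p = 7.31e-07), −0.62 ± 0.06 (adjusted p = 4.85e-07) and −0.62 ± 0.07 (adjusted p = 9.00e-07). Psme2b (0.99 ± 0.21, adjusted p = 0.000635) and Psmc6 (0.56 ± 0.13, adjusted p = 0.00127) were higher in old lungs, and Psmc6 turned to −0.29 after GC-trend removal. After removal 2 members were higher and 22 lower in old lungs, against 14.5%, 17.5% and 32.0% of all genes higher, lower and either. The age difference in the 1 h change was called lower for 14 members and higher for 2, against 9.46% and 8.07% of all genes tested (17.5% in all). After GC-trend removal 10 were lower and 0 higher, against 2.94%, 1.59% and 4.53% of all genes lower, higher and either.

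In old against young 1 day lungs, 10 members were higher and 17 lower, against 25.1% and 25.1% of all genes tested (50.2% in all). After GC-trend removal 6 were higher and 18 lower, against 20.8%, 22.2% and 42.9% of all genes higher, lower and either. Psmb3 was lower in old lungs, at 296, 263, 278 and 292 TPM against 424, 388, 361 and 413 TPM in young lungs (−0.61 ± 0.07, adjusted p = 9.46e-07). Every old 1 day library was below every young 1 day library. The sums of the 31 constitutive genes and of the 5 immunoproteasome genes, in contrast, overlapped between ages at 1 day. Also lower in old lungs as fitted were Psmb10 (log2 difference −0.68 ± 0.18, adjusted p = 0.00356), Psmb8 (−0.41 ± 0.17, adjusted p = 0.0461) and Psme1 (−0.40 ± 0.13, adjusted p = 0.0103). None of these 3 was called after GC-trend removal, when 0 immunoproteasome genes passed.

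The age difference in the 1 day change was called lower for 17 members and higher for 6, against 15.2% and 15.2% of all genes tested (30.3% in all), and after GC-trend removal for 15 and 3, against 10.6%, 10% and 20.6% of all genes lower, higher and either. Psmb3 (−0.72 ± 0.10, adjusted p = 6.24e-05; −0.49 after removal) and Psmd4 (−0.64 ± 0.11, adjusted p = 0.000355; −0.37 after removal) rose less in old lungs. Psmc6 (0.86 ± 0.18, adjusted p = 0.00127) had a higher change in old lungs as fitted and a difference of 0.00 (adjusted p = 0.988) after removal.

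**Figure D4:**
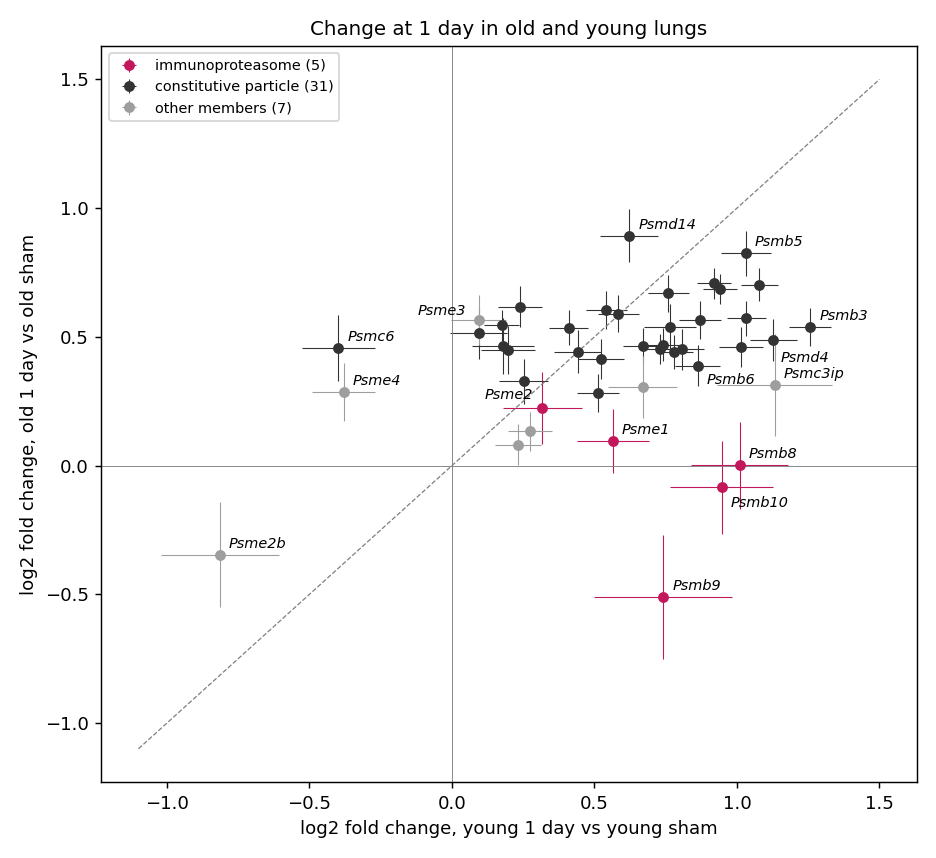
Log2 change from sham at 1 day in young lungs (horizontal axis) and in old lungs (vertical axis) for the 43 members, with SE bars and a dashed line of equal change. Constitutive genes lie above 0 on the vertical axis, with a median of 0.51 in old and 0.73 in young lungs. The immunoproteasome genes lie below the dashed line, Psme2 by only 0.09. Many constitutive genes lie below it too, with a median age difference of −0.21 (12 called lower and 4 higher).

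In young lungs members with a higher transcript GC content tended to have the larger changes. Across the 43 genes, Pearson r between transcript GC content and the log2 change was −0.10 in old 1 day and 0.58 in young 1 day lungs, and −0.22 in old 1 h and 0.57 in young 1 h lungs. After GC-trend removal r was −0.26 in old 1 day and −0.20 in young 1 day lungs. The genes share the same libraries, so r is a description. Psmd3, a lid gene at 58.3% GC, and Psmc6 at 37.0% bound the range.

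**Figure D5:**
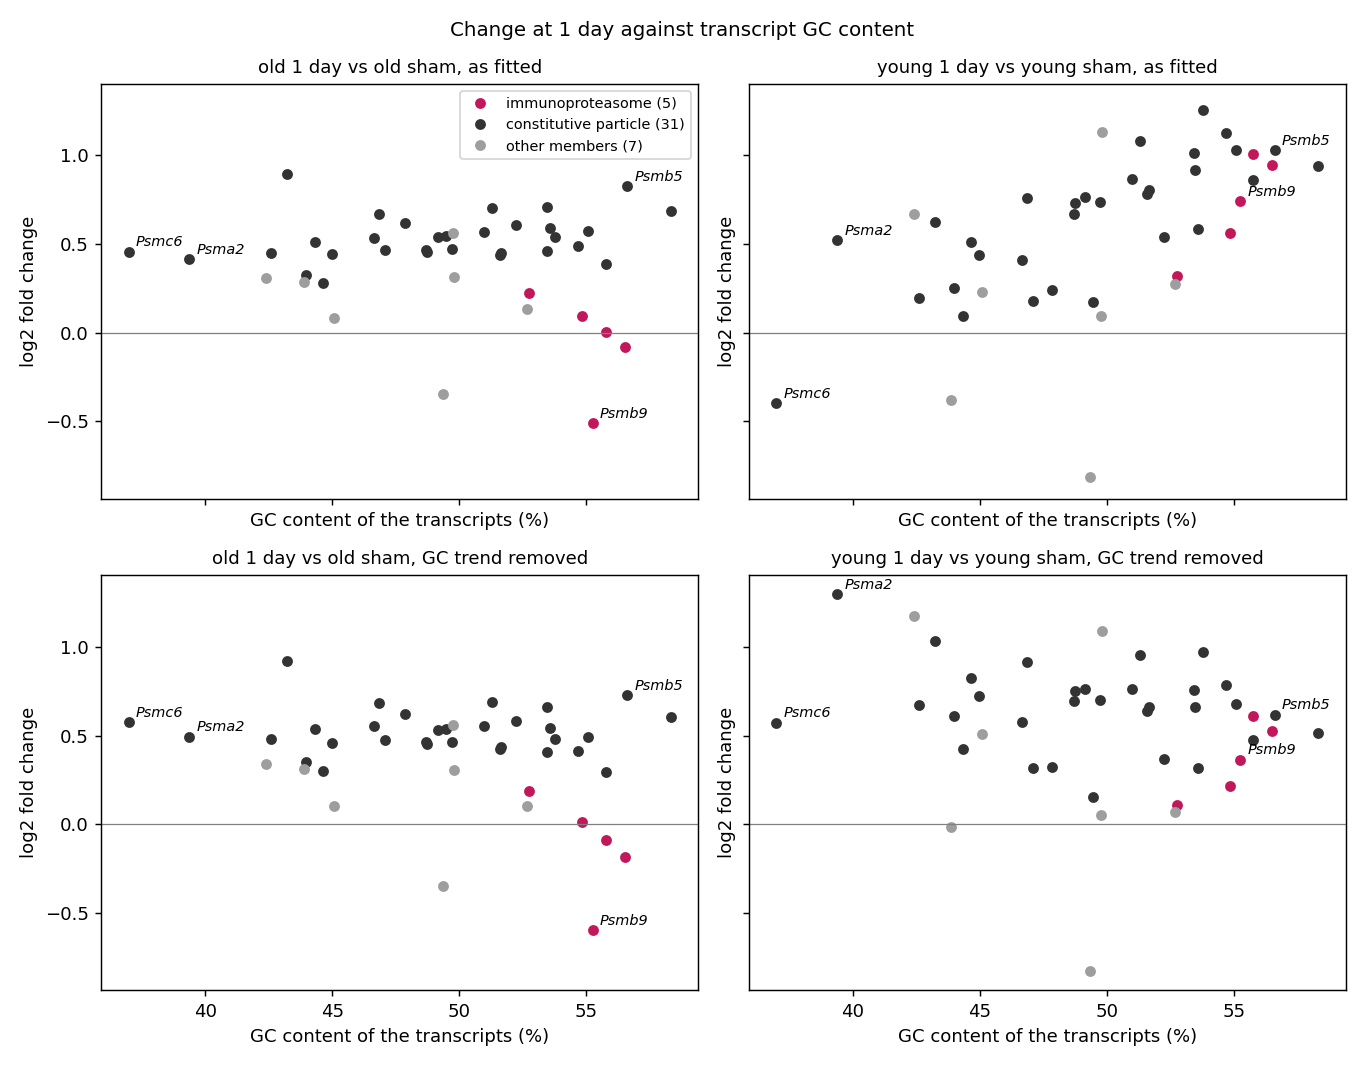
Log2 change at 1 day from sham against transcript GC content (percent) for the 43 members, in old (left) and young (right) lungs, as fitted (upper) and after removal of the GC trend of each library (lower). The slope is visible in young lungs as fitted (r = 0.58) and not after removal (r = −0.20).

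The alternative activators moved apart between ages. Psme3, which forms a nuclear activator, had 76.2, 69.1, 93.2 and 70.7 TPM in old 1 day lungs, against 54.2, 54.1, 53.9 and 55.8 TPM in old sham lungs, with no overlap (0.56 ± 0.10, adjusted p = 0.000129). In young lungs it had 45.7, 45.8, 62.5 and 48.3 TPM at 1 day, against 51.0, 61.1, 52.2 and 56.4 TPM in sham, with overlap (0.09 ± 0.10, adjusted p = 0.440). The age difference in the change was 0.47 ± 0.14 (adjusted p = 0.0129), and 0.51 (adjusted p = 0.0162) after GC-trend removal. Psme4, a large activator that does not need ATP, had 32.7, 31.2, 33.3 and 34.3 TPM in old 1 day lungs, against 25.7, 29.0, 27.6 and 30.0 TPM in old sham lungs (0.29 ± 0.11, adjusted p = 0.0489). In young lungs Psme4 had 17.4, 22.3, 24.1 and 15.8 TPM at 1 day, against 30.4, 33.7, 29.1 and 27.0 TPM in sham (−0.38 ± 0.11, adjusted p = 0.00649), a fall that did not hold after GC-trend removal (−0.02, adjusted p = 0.886). Its age difference of 0.67 ± 0.16 (adjusted p = 0.00316) became 0.33 (adjusted p = 0.0638).

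Psme2b, near-identical to Psme2 so that reads may be split between them and its values are uncertain, had 3.17, 4.50, 6.16 and 4.64 TPM in young 1 day lungs, against 6.04, 11.8, 8.82 and 11.5 TPM in young sham lungs (−0.81 ± 0.21, adjusted p = 0.00209). At 1 h in young lungs it had 4.69, 2.69, 5.12 and 4.07 TPM (−0.92 ± 0.21, adjusted p = 0.00117). Of the 3 base assembly chaperones, all were called higher in young 1 day lungs (Psmd10 by 0.67 ± 0.12, adjusted p = 7.66e-05; Psmd9 by 0.27; Psmd5 by 0.23) and none in old 1 day lungs; of all genes 27.9% and 20.0% rose. After GC-trend removal 2 of the 3 were called in young 1 day lungs, without Psmd9 (0.07, adjusted p = 0.443). Psmd10 in old 1 day lungs was at 0.31 ± 0.12 (adjusted p = 0.0516), and was the 1 chaperone called there after removal (0.34, adjusted p = 0.0491).

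Other genes of the pathway were read from lists that are not members, to be set against the 20.0% of all genes that rose and 16.3% that fell in old 1 day lungs, and the 27.9% and 26.0% in young 1 day lungs. Of 10 core assembly, maturation and accessory genes, 5 rose and 0 fell in old 1 day lungs, and 5 rose and 2 fell in young 1 day lungs. After GC-trend removal 6 rose and 0 fell in old, and 8 rose and 0 fell in young 1 day lungs. Of all genes, 20.9% rose and 18.3% fell in old, and 25.2% and 23.4% in young 1 day lungs after removal. Adrm1, a ubiquitin receptor of the regulatory particle, rose by 0.55 ± 0.06 in old (adjusted p = 5.87e-07) and 0.62 ± 0.06 in young 1 day lungs (adjusted p = 2.21e-08). The core assembly chaperone Psmg3 rose by 0.46 ± 0.13 in old (adjusted p = 0.00786) and 1.23 ± 0.13 in young 1 day lungs (adjusted p = 6.95e-08). Of 13 shuttle factors and deubiquitinases, 9 rose and 0 fell in old 1 day lungs, and 5 rose and 2 fell in young 1 day lungs. After GC-trend removal the counts were 9 and 0 in old and 5 and 1 in young 1 day lungs. Vcp, the segregase that extracts ubiquitinated proteins, rose by 0.51 ± 0.08 in old (adjusted p = 3.12e-05) and 0.75 ± 0.08 in young 1 day lungs (adjusted p = 5.21e-08).

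Ubiquitin genes moved early. Ubb, which encodes ubiquitin, was higher by 0.38 ± 0.10 in old 1 h (adjusted p = 0.00735) and 1.15 ± 0.10 in young 1 h lungs (adjusted p = 2.52e-08). Of the 6 ubiquitin and activating enzyme genes, 3 were higher in old 1 h and 4 in young 1 h lungs, then 1 in old 1 day and 4 in young 1 day lungs, with 0 lower in these 4 comparisons as fitted. Of all genes tested, 12.6% were higher in old 1 h, 21.2% in young 1 h, 20.0% in old 1 day and 27.9% in young 1 day lungs. After GC-trend removal 4 of the 6 genes were higher in old 1 h and 5 in young 1 h lungs. At 1 day 2 were higher in old and 5 in young lungs, and 1 was lower in old lungs. After removal 14.1%, 17.3%, 20.9% and 25.2% of all genes were higher in that order. In old 1 day lungs 18.3% were lower. Of 4 transcriptional control genes, 2 were higher and 1 lower in young 1 h lungs, against 21.2% and 20.1% of all genes. In old 1 h lungs 1 was higher and 0 lower, against 12.6% and 12.6%. After GC-trend removal 1 was higher and 0 lower at either age. Of all genes, 17.3% and 16.3% were so called in young and 14.1% and 14.3% in old 1 h lungs. Among these genes, Nfe2l2, a regulator of the antioxidant response, was higher by 0.89 ± 0.13 in old 1 h (adjusted p = 3.05e-05) and 0.57 ± 0.13 in young 1 h lungs (adjusted p = 0.000944). Nfe2l1 was not called at 1 day, at 0.03 ± 0.08 in old (adjusted p = 0.821) and 0.14 ± 0.08 in young lungs (adjusted p = 0.137). Ddi2, the protease that activates NFE2L1, rose in old 1 day lungs by 0.55 ± 0.20 (adjusted p = 0.0374) and was at −0.40 ± 0.20 in young 1 day lungs (adjusted p = 0.0986).

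The 10 class I antigen genes, several of which are induced by interferon like the immunoproteasome, gave 0 calls in old 1 day lungs (median −0.08), and 6 higher and 1 lower in young 1 day lungs (median 0.51; 27.9% of all genes rose and 26.0% fell). After GC-trend removal 1 was higher and 0 lower in young 1 day lungs, against 25.2% and 23.4% of all genes. Tap1, the head-to-head neighbour of Psmb9, rose in young 1 day lungs as fitted (0.67 ± 0.22, adjusted p = 0.0125) and not after removal (0.22, adjusted p = 0.383), with 72.6, 60.7, 46.3 and 127 TPM in the 4 libraries. As for Psmb8, Psmb9 and Psmb10, young 1 day library 4 was the highest of these.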

How the data were processed

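Lung RNA was sequenced in 24 libraries of 6 groups, taken from the sample titles. Per the submitters' processing notes the authors used HISAT2 and StringTie on mm10/GRCm38, with no versions given. The deposited table holds, for 129299 RefSeq transcripts, expected counts (whole-number estimates, equal in 98.39% to 99.03% of values under 50 to FPKM × length × a constant, rounded up), FPKM and TPM. The deposited FPKM served only that check and length checks. Levels are the TPM that the authors deposited, which adjust for transcript length and library size.

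Counts and TPM were summed per gene symbol. Symbols that share reads cannot be told apart after that estimation. Genes were filtered with filterByExpr (minimum count 10), scaled by TMM and fitted as 6 group means over all 24 libraries with edgeR 4.0.16 (R 4.3.3). The quasi-likelihood F test was two-sided, with Benjamini-Hochberg adjustment over 19690 genes and a threshold of 0.05. SE was |log2 change| divided by the square root of F, and the biological coefficient of variation was 23.2%. Library totals of 27850677 to 44504824 estimated reads set the precision. The GC trend was a lowess of each library's log2 ratio to the mean on transcript GC content over 18156 genes, subtracted as an offset. Ratios of catalytic subunits were compared by exact permutation.

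Alternatives were DESeq2 1.42.0, limma 3.58.1 on log2(TPM + 1) and log2(TPM + 0.1), library totals without TMM, other filters, curated transcripts, a replicate block, only the groups compared, and leaving out each library. The fit was tested on simulated data, with changes set in the old 1 day group for genes drawn at random from all tested. Against old sham it recovered 25% of 100 genes changed 1.5-fold and 56% of 100 changed 2-fold. Of its calls, 5.81% were false. The members and lists were chosen with earlier results of these data known. Named genes were, in each comparison, the 3 largest called rises and falls, the catalytic and activator genes, the highest and lowest member of each role and members that changed under GC-trend removal. Members named outside this rule, where a count turned on them, were chosen after their values were seen. Results for some genes of these lists are not reported here.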

Additional observations from a re-analysis of the deposited data

Results flagged for a closer look

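Each of 258 member and group combinations was checked for a library far from the other 3, and 11 stood out; chance gives about 1 in 20. In old 1 day lungs, library 1 had 162.873 TPM of Psma1 (the others 140 to 142). In old 1 h lungs, library 1 had 150.988 TPM of Psmb8 (others 127 to 128) and 56.594 TPM of Psmd11 (others 53.0 to 53.6), and library 3 had 116.641 TPM of Psmc1. In old sham lungs, library 4 had 55.759 TPM of Psme3 (others 53.9 to 54.2). In young 1 day lungs, library 3 had 251.308 TPM of Psma2, 160.229 TPM of Psmd8 and 62.452 TPM of Psme3, above the other 3 in each case. In young 1 h lungs, library 4 had 37.776 TPM of Psmc6 (others 58.7 to 61.4). In young sham lungs, library 2 had 99.109 TPM of Psmb8 (others 112 to 115) and library 1 had 99.85 TPM of Psmc4 (others 96.2 to 96.6).

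The change from sham differed between old and young lungs, by the interaction test of edgeR (adjusted p under 0.05), in 16 members at 1 h and 23 at 1 day. Of all genes tested, 17.5% and 30.3% did so. After GC-trend removal 10 members were called lower and 0 higher at 1 h, and 15 lower and 3 higher at 1 day (4.53% and 20.6% of all genes were called). The values that follow are as fitted. At 1 h the log2 difference (old change minus young change) was above 0 for Psme2b (0.9315) and Psmc6 (0.5897). It was below 0 for Psmd4 (−0.8220), Psmb3 (−0.6645), Psmc3 (−0.5801), Psmd2 (−0.5332), Psmd13 (−0.5104), Psmb6 (−0.4565), Psmc5 (−0.4450), Psma5 (−0.4442), Psmd3 (−0.4368), Psma7 (−0.4253), Psmd9 (−0.3926), Psmc4 (−0.3919), Psmd7 (−0.3324) and Psmb2 (−0.3224). At 1 day it was above 0 for Psmc6 (0.8560), Psme4 (0.6664), Psme3 (0.4714), Psmd12 (0.4203), Psmd11 (0.3796) and Psmc1 (0.3697). At 1 day it was below 0 for the immunoproteasome genes Psmb9 (−1.2515), Psmb10 (−1.0307), Psmb8 (−1.0095) and Psme1 (−0.4695). The other members below 0 at 1 day were Psmc3ip (−0.8201), Psmb3 (−0.7183), Psmd4 (−0.6401), Psmd13 (−0.5538), Psmb6 (−0.4747), Psmc3 (−0.4612), Psmd2 (−0.3756), Psma7 (−0.3539), Psmc5 (−0.3401), Psmb2 (−0.3035), Psmc2 (−0.2758), Psmd7 (−0.2702) and Psmd3 (−0.2539).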

How the results depend on the processing

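Counts of members called, higher then lower, were 22 and 3 in young 1 h, 35 and 3 in young 1 day, 5 and 1 in old 1 h and 33 and 0 in old 1 day lungs against sham. Without TMM they were 12 and 12 in young 1 h and 0 and 8 in old 1 h lungs, 10 members were higher in old than in young 1 h lungs, and 11 had a lower 1 day change in old lungs. With limma on log2(TPM + 1) and on log2(TPM + 0.1) they were 9 and 14 in young 1 h and 0 and 11 in old 1 h lungs under either pseudocount, with 1 lower in old 1 day lungs, 7 higher in old than in young 1 h lungs, 10 with a higher 1 day change in old lungs, and 8 and 9 with a lower 1 day change. After GC-trend removal 1 was lower in young 1 day, 8 were higher in old 1 h, 1 was lower in old 1 day, 1 was higher in old than in young sham and 6 in old than in young 1 day lungs, 0 had a higher 1 h change and 3 a higher 1 day change in old lungs. With curated transcripts only, 1 was lower in young 1 h, 2 higher and 0 lower in old 1 h, 1 lower in old 1 day and 6 higher in old than in young 1 day lungs, and 0 and 3 had a higher change at 1 h and 1 day in old lungs. Without the low-count filter 2 were higher in old 1 h lungs and 1 had a higher 1 h change in old lungs. DESeq2 called 1 member higher in old than in young sham lungs; only the groups compared gave 2 there and 2 lower in old 1 h lungs.

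Single genes that passed the threshold as reported turned sign under some settings; most of the turned values did not themselves pass. In limma on log2(TPM + 1) and log2(TPM + 0.1), Psmb4 (−0.01828 and −0.01838), Psmb5 (−0.04087 and −0.04117) and Psmd9 (−0.02945 and −0.03079) did so in young 1 h and Psmc1 (−0.05274 and −0.05309) in young 1 day lungs. After GC-trend removal the turned values were Psmb5 −0.06732 and Psmc6 0.5984 in young 1 h, Psmc6 0.5723 in young 1 day, Psmb5 0.06663 and Psmc6 −0.2922 in old against young 1 h, and Psma3 −0.09235, Psmc6 −0.05409, Psmd14 −0.1284 and Psmd3 0.03485 in old against young 1 day lungs. The age differences that turned were Psmc6 −0.2347 at 1 h and Psmd3 0.09526 at 1 day. On curated transcripts Psmd5 was 0.1237 in young 1 h, and Psma3 −0.7309 and Psmd11 −0.1449 in old against young 1 day lungs. The cause of these changes was not tested.

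When each library was left out in turn, the counts ran over 2 to 5 higher and 1 lower in old 1 h lungs, 32 to 34 higher and 0 to 1 lower in old 1 day lungs, 18 to 22 higher and 2 to 3 lower in young 1 h lungs, 31 to 37 higher and 3 lower in young 1 day lungs. Between ages they were 0 to 1 higher and 0 lower in old against young sham lungs, 2 to 6 higher and 16 to 20 lower in old against young 1 h lungs, 7 to 10 higher and 16 to 22 lower in old against young 1 day lungs, 1 to 2 higher and 12 to 16 lower in the age difference at 1 h, 4 to 8 higher and 13 to 19 lower in the age difference at 1 day.

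Replicate numbers did not mark shared animals or days in the labels, and the 60 same-number pairs of libraries had a mean correlation of −0.011 (6 above 0.1), against 0.004 over 180 other pairs; 6 of 24 libraries correlated best with their own number. With the replicate block the counts were 23 and 3 in young 1 h, 35 and 3 in young 1 day, 4 and 1 in old 1 h, 34 and 0 in old 1 day, 1 and 0 between sham groups, 3 and 19 between 1 h groups and 10 and 19 between 1 day groups. With 4 libraries a group the SE of a log2 change from sham was 0.17 for Psmb8, 0.18 for Psmb10 and 0.24 for Psmb9, so the absence of a call for these genes does not show that they did not change.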
